A study of Mus musculus with 16 samples.

Results

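Microtubule motors carry cargo, RNA included, along microtubules, and this report covers the mRNAs that encode them in the protrusions and cell bodies of migrating fibroblasts. Genes were taken by name: kinesin heavy chains (Kif followed by a digit), kinesin light chains (Klc), cytoplasmic dynein subunits (Dync, Dynl) and dynactin subunits (Dctn), with 1 pseudogene name left out. The rule found 50 of the 13015 listed genes. The 30 kinesins are 11 mitotic kinesins, 10 transport kinesins, 5 other kinesins and 4 light chains. The 20 genes of the other family encode 4 subunits of dynein 1, 2 of dynein 2, 8 dynein light chains and 6 dynactin subunits.

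Most kinesins walk towards the plus ends of microtubules, which in a migrating fibroblast mostly point to the cell edge, and cytoplasmic dynein walks towards the minus ends. Dynactin joins dynein to its cargo and keeps it on the microtubule. Dynein 2 works in the cilium. The mitotic kinesins build the spindle, move chromosomes and complete cytokinesis. APC, the adenomatous polyposis coli protein, binds microtubule plus ends and also takes part in placing RNAs at protrusions.

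All 16 libraries came from NIH/3T3, an immortalized mouse fibroblast line. Cells received a control siRNA (siControl) or siRNA against Apc (siAPC) and were serum-starved. They stood 2 h on a filter whose pores measure 3.0 µm. Then 1 h of lysophosphatidic acid drew protrusions through the pores, and the filters were fixed in 0.3% paraformaldehyde for 10 min. Protrusions (Ps) and cell bodies (CB) were scraped from opposite sides of the filter, which gave 4 libraries for each fraction and siRNA: siControl CB and Ps, siAPC CB and Ps. The questions were which motor mRNAs were enriched in Ps (the Ps/CB ratio), whether that ratio changed with siAPC, and whether their levels changed with siAPC in either fraction. The study calls the replicates independent, and the labels do not say whether they were separate cultures, so p-values measure the spread between these libraries.

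Listed reads ranged from 13466225 to 20296087 per library. Apc itself was lower with siAPC: it averaged 2.61 in siControl CB, 0.93 in siAPC CB, 3.53 in siControl Ps and 1.68 in siAPC Ps on the deposited log2 scale, a change of -1.67 ± 0.25 (SE) in CB (adjusted p = 0.000142) and -1.84 ± 0.25 in Ps (adjusted p = 3.11e-05). Of the 3 nuclear RNAs listed, 3 were lower in Ps under both siRNAs, with Malat1 at a log2 Ps/CB of -2.77 in siControl. All 10 fibroblast markers were listed. Their summed log2 level was 15.28 to 15.38 in siControl CB and 15.62 to 15.76 in siAPC CB. In Ps it was 14.49 to 14.63 in siControl and 14.82 to 14.96 in siAPC, so the groups did not overlap. Of 4 epithelial markers Cdh1 and Krt8 were listed (summed 2.96 to 3.42) and Epcam and Krt18 were not, of 3 leukocyte markers Cd68 was listed (1.84 to 2.68) and Ptprc and Itgam were not, and of 3 endothelial markers Pecam1 was listed (-4.83 to -0.43) and Cdh5 and Kdr were not. Mitochondrial reads were 1.37% to 1.95% of the total in CB and 2.18% to 4.16% in Ps. In 4 libraries (number 3 of siControl CB and number 2 of each other group) genes of low GC content read high: Spearman's rho across 12872 genes between GC content and the deviation from the other libraries of the group was -0.52 to -0.49, against -0.04 to 0.42 in the other 12. Results were also computed without these 4.

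Levels between genes were compared per length, as log2 reads per kilobase of annotated exon, from the deposited scale. In siControl CB the most abundant motor mRNAs were Dynlrb1, a roadblock-type dynein light chain, at 7.28 ± 0.09 (SD, n = 4) and Dctn2, the dynactin subunit dynamitin, at 6.51 ± 0.10. Kif1c, a kinesin-3 motor that carries vesicles, followed at 5.46 ± 0.14 and Dctn3 at 5.32 ± 0.19, a gap within their spread. The lowest level was that of Kif18a at -4.82 ± 1.19, with Kif20b at -4.53 ± 0.99 and Kif15 at -4.48 ± 0.31, gaps within their spread. In siControl Ps the order of the leading mRNAs was Dynlrb1 at 8.21, Kif1c at 7.54, Dynll2 at 7.02 and Dctn2 at 6.82. Kif1c was the most abundant of the 30 kinesin mRNAs in both siControl fractions. The mitotic kinesins were scarce, between -4.82 and 1.43 in siControl CB, and Kif15, Kif18a and Kif20b had 1 to 27 reads in a library.

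In siControl cells a majority of the dynein and dynactin mRNAs lay towards Ps at the deposited values, while kinesin mRNAs lay on both sides. After a loess correction for GC content and length the family medians of log2 Ps/CB were 0.28 and 0.23, a difference within its spread. Kif1c and Dynll2, an LC8-type dynein light chain, stood highest, each about 4-fold enriched in Ps. Kif5b, the ubiquitous kinesin-1 heavy chain, and Dynlt3, a Tctex-type dynein light chain, were enriched more than 2-fold as well, though Dynlt3 was at 0.54 log2 after a loess correction for GC content and length. Kif5a, a kinesin-1 heavy chain best known from neurons, and Kif18b, a mitotic kinesin, were more than 2-fold lower in Ps at the deposited values, and at -0.65 and -0.64 after that correction. Over the 50 members, 19 were higher and 9 lower in Ps at an adjusted p below 0.05, whereas 29.1% of all listed genes were higher and 31.2% lower. Ps-enriched members (above 2-fold, unadjusted p below 0.05) numbered 4, or 8.0%, beside 7.19% of all genes, and CB-enriched members numbered 2, or 4.0%, beside 6.82%. The share above 2-fold was near that of all genes. In siAPC 6 members (12%) were Ps-enriched, with Kif4 and the low-count Kif15 besides the same 4, beside 7.67% of all genes, and Kif13b and Kif24 were CB-enriched (4.0%), beside 5.05%. In siControl the 4 libraries of each fraction did not overlap for 17 members that were higher in Ps, beside 24.0% of all genes, and for 7 that were lower, beside 26.5%. These counts rest on the deposited scaling. With scaling by total listed reads the median of all genes fell by 0.30, and 12 members were higher and 17 lower. The shares of all genes above belong to the deposited scaling and cannot be set beside that 12 and 17.

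Kif1c lies on mouse chr11:70700548-70731964 (plus strand, GRCm38, as are all positions here). Its log2 values were 8.45, 8.40, 8.14 and 8.29 in siControl CB and 10.51, 10.16, 10.56 and 10.38 in siControl Ps. In siAPC cells they were 8.54, 8.45, 8.51 and 8.48 in CB and 9.76, 9.51, 10.04 and 9.98 in Ps. Every Ps library lay above every CB library, and every siAPC Ps library lay below every siControl Ps library. Ps/CB was 2.08 ± 0.10 (SE; 4.23-fold, adjusted p = 1.61e-11) in siControl and 1.33 ± 0.10 (2.51-fold, adjusted p = 3.96e-09) in siAPC. Between 5751 and 22886 reads stood behind each value.

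Dynll2 lies on chr11:87979525-87987533 (minus strand). Its log2 values were 6.58, 6.60, 6.26 and 6.36 in siControl CB and 8.55, 8.47, 8.48 and 8.38 in siControl Ps. With siAPC they were 6.80, 6.84, 6.75 and 6.77 in CB and 8.20, 8.22, 8.41 and 8.45 in Ps. The fractions did not overlap under either siRNA, and in CB the siAPC libraries lay above the siControl libraries. Ps/CB was 2.02 ± 0.08 (4.05-fold, adjusted p = 8.69e-13) in siControl and 1.53 ± 0.08 (2.89-fold, adjusted p = 4.32e-11) in siAPC. Its close paralogue Dynll1, the other LC8 chain, which also serves as a binding hub for many proteins outside dynein, was enriched less, by 0.78 ± 0.06 (adjusted p = 2.03e-09) in siControl and 0.79 ± 0.06 in siAPC.

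**Figure D1:**
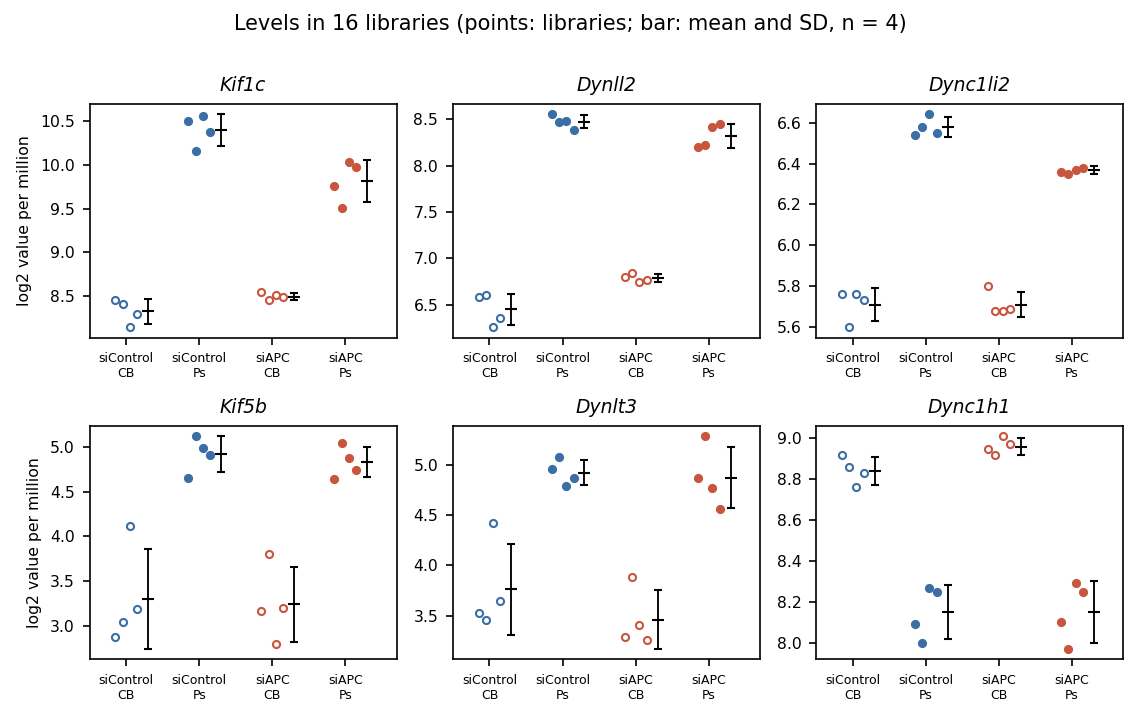
Log2 values of 6 motor mRNAs in the 16 libraries, by group (points are libraries, the bar is the mean and SD of 4). Kif1c and Dynll2 separate the fractions by about 2 log2 units in siControl and by less in siAPC, Kif5b and Dynlt3 are high in Ps under both siRNAs with siControl CB 3 above the other CB libraries, and Dync1h1 is lower in Ps.

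Kif5b values were 2.87, 3.04, 4.12 and 3.19 in siControl CB and 4.65, 5.12, 4.99 and 4.91 in siControl Ps. With siAPC they were 3.16, 3.80, 2.79 and 3.20 in CB and 4.64, 5.04, 4.88 and 4.74 in Ps. The high CB value of siControl belonged to library 3, where genes of low GC content read high, but the fractions still did not overlap. Ps/CB was 1.61 ± 0.22 (3.06-fold, adjusted p = 4.04e-06) in siControl and 1.59 ± 0.22 (3.00-fold, adjusted p = 5.49e-06) in siAPC, and 1.82 and 1.71 without the 4 libraries with the GC trend. The other kinesin-1 heavy chain, Kif5a, went the opposite way at a low level of 8 to 62 reads, with Ps/CB of -1.19 ± 0.22 (adjusted p = 0.000141) in siControl and -0.82 ± 0.22 (adjusted p = 0.00377) in siAPC, where loess correction left -0.22 and ended the call. The kinesin light chains, which bind cargo for kinesin-1, were not high in Ps at the deposited values. Klc2 fell by 0.40 ± 0.07 in siControl Ps (adjusted p = 0.000126), and Klc1, Klc3 and Klc4 had values of -0.06, -0.17 and -0.17 that did not pass the test; after scaling by total reads Klc1 to Klc4 were all lower in Ps. Loess correction turned them to 0.26, 0.16, 0.16 and 0.20 for Klc1 to Klc4, of which Klc1, Klc2 and Klc4 passed. In siAPC Klc1 fell by 0.19 (adjusted p = 0.0454) and Klc2 by 0.51 (adjusted p = 8.76e-06), and Klc3 and Klc4 had -0.13 and -0.16 and did not pass. Loess correction turned these to 0.16, 0.09, 0.24 and 0.25 for Klc1 to Klc4, and all but Klc2 passed as higher.

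The other transport kinesins divided as well. Kif13b, a kinesin-3 motor related to Kif1c, had log2 values of 4.15, 4.15, 4.26 and 4.44 in siControl CB and 3.07, 2.86, 3.60 and 3.55 in siControl Ps. The fractions did not overlap, and Ps/CB was -0.98 ± 0.15 (adjusted p = 1.59e-05) in siControl and -1.31 ± 0.15 (adjusted p = 5.5e-07) in siAPC, and -0.44 and -0.71 after loess correction. The kinesin-2 motor subunits Kif3a and Kif3b pair with each other and work in ciliary and vesicle transport. Kif3b rose by 0.23 ± 0.07 in siControl Ps (adjusted p = 0.00629) but was at -0.07 with total reads, and Kif3a had a value of 0.30 ± 0.19 (adjusted p = 0.171). In siAPC Kif3b rose by 0.20 (adjusted p = 0.0154) and Kif3a by 0.44 (adjusted p = 0.048). Total reads ended these calls, at 0.04 and 0.28. After loess correction Kif3b was at 0.51 in siControl and 0.48 in siAPC and passed. Kif3a in siAPC stayed at 0.45 with that correction but did not pass (adjusted p = 0.0502). Kif3c, the third kinesin-2 heavy chain, was lower by the deposited values at -0.30 ± 0.12 (adjusted p = 0.0424), a call that leaving out siControl CB 1, 2 or 4, siControl Ps 1 or 2, or siAPC CB 4 ended, as did limma-voom weights (adjusted p = 0.0512), quantile normalization (adjusted p = 0.144) and a fit without a trend. Kif3c shares 35.3% of its exonic bases with a listed antisense gene, and the strand setting of the counting is not given in the sources used here. Kif7, a ciliary kinesin of Hedgehog signalling, was lower in Ps by the deposited values, at -0.42 ± 0.09 (adjusted p = 0.000644) in siControl and -0.72 ± 0.09 in siAPC. A loess correction for GC content and length turned Kif7 to 0.28 and 0.04, and Kif3c in siControl to 0.15. In siAPC Kif3c fell by 0.54 (adjusted p = 0.000996), which loess correction brought to -0.04, ending the call. Kif2a, a kinesin that takes microtubule ends apart, rose by 0.43 ± 0.17 (adjusted p = 0.0378) in siControl and 0.73 ± 0.17 in siAPC, but was at 0.08 and 0.19 after loess correction and did not pass. Of their exonic bases Kif2a shares 19.2% with Dimt1, Klc3 28.1% with Ercc2 and Kif7 19.1% with an antisense gene that is not listed, all on the opposite strand. Kif24, a centriolar kinesin, fell with 7 to 36 reads in a library, at -0.70 ± 0.25 (adjusted p = 0.023) in siControl, a call lost without siControl CB 2, siControl Ps 2 or the 4 libraries with the GC trend (adjusted p = 0.0702) and after loess correction (-0.37, adjusted p = 0.219), and at -1.29 ± 0.25 (adjusted p = 0.000242) in siAPC. At the deposited values the other 5 kinesins passed an adjusted p of 0.05 in none of the 5 comparisons: Ps/CB in siControl was -0.01 for Kif1b, which carries mitochondria and synaptic vesicle precursors, -0.07 for Kif13a and 0.33 for Kif16b, both endosomal kinesins, 0.38 for Kif21a, which stills microtubule growth at the cell edge, and 0.28 for Kif9. Kif21a and Kif16b, with values of -0.39 and -0.36 in Ps with siAPC, had adjusted p of 0.126 and 0.104. After loess correction Ps/CB in siControl was 0.26 for Kif1b, 0.42 for Kif13a, 0.45 for Kif16b and 0.56 for Kif21a, and these 4 passed, while with total reads Kif13a was at -0.37 and passed as lower.

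**Figure D2:**
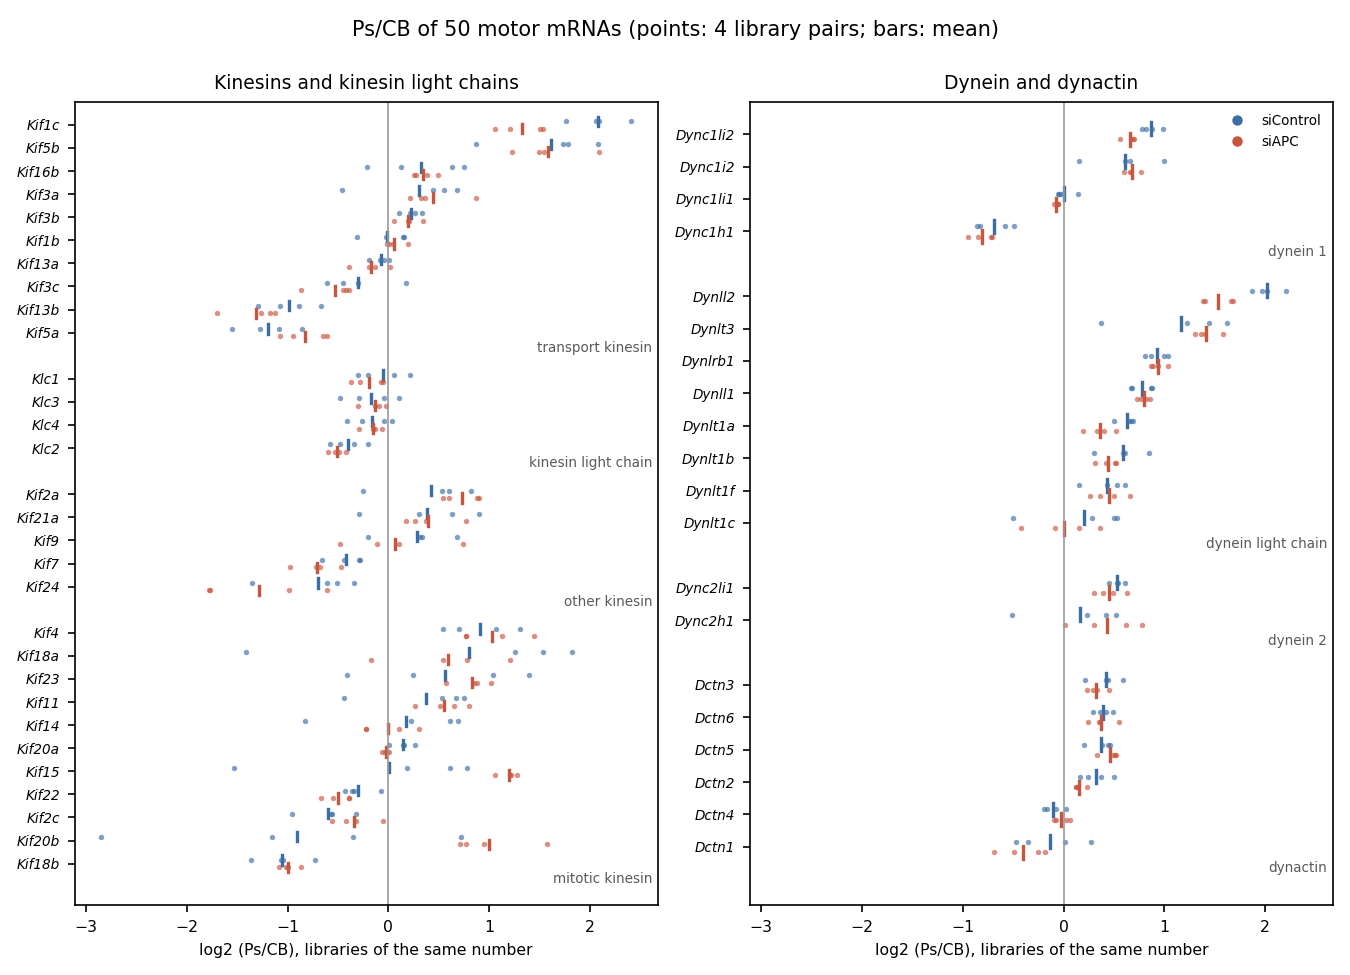
Log2 Ps/CB of the 50 motor mRNAs, each Ps library set against the CB library of the same number (points are the 4 ratios, bars their mean), ordered by role. At the deposited values the means of dynein light chains lie at or right of 0, those of kinesin light chains left of it (right of it after the loess correction), and transport kinesins run from Kif1c at 2.08 to Kif5a at -1.19 in siControl.

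Dynein and dynactin genes were called higher in Ps more often than kinesins at the deposited values, a difference in counts that was not tested. In siControl 14 of 20 (70.0%) were higher and 1 was lower in Ps, compared with 5 of 30 kinesins (16.7%) higher and 8 (26.7%) lower, beside 29.1% and 31.2% of all genes. In siAPC 14 of 20 were higher and 2 lower in the dynein and dynactin family, and 8 of 30 kinesins were higher and 9 lower, beside 29.8% of all genes higher and 30.9% lower. With scaling by total reads the siControl counts became 9 higher and 4 lower for dynein and dynactin, and 3 higher and 13 lower for kinesins. The shares of all genes above are of the deposited scaling and cannot be set beside these counts. The median Ps/CB over the 20 genes, taken in each of the 4 ratios of same-numbered libraries, averaged 0.47 ± 0.03 (SD, n = 4) in siControl and 0.39 ± 0.09 in siAPC, and over the 30 kinesins 0.02 ± 0.17 and 0.01 ± 0.06. The families differed by 0.46 ± 0.15 and 0.38 ± 0.09, with dynein and dynactin above kinesins in 4 of 4 ratios under each siRNA, while the median of all genes was -0.01 and 0.01. After a loess correction for GC content and length the difference was 0.05 ± 0.14 and 0.03 ± 0.05, within its spread. Scaling by total reads shifts all genes of a library alike and so cannot change this difference, and it moved the kinesin medians to -0.28 and -0.15. In siControl the CB and Ps libraries of numbers 2 and 3 did not deviate together (r = -0.121), so not all siControl ratios are paired measurements. The family difference was not tested, since the genes of a family share their libraries and the families were chosen with results of these data known.

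The heavy chain of dynein 1 went against its light chains. Dync1h1, which carries the motor itself, had log2 values of 8.92, 8.86, 8.76 and 8.83 in siControl CB and 8.09, 8.00, 8.27 and 8.25 in siControl Ps. In siAPC they were 8.95, 8.92, 9.01 and 8.97 in CB and 8.10, 7.97, 8.29 and 8.25 in Ps. No Ps library reached a CB library. Ps/CB was -0.69 ± 0.07 (0.62-fold, adjusted p = 1.6e-07) and -0.81 ± 0.07 (0.572-fold, adjusted p = 2.69e-08). The Dync1h1 transcript has 14342 bases, a length that 60 of 12872 annotated genes reach, and after loess correction for GC content and length the values were -0.03 and -0.05 and no longer passed the test.

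At the deposited values none of the other dynein 1 subunits was called lower in Ps. Dync1li2, a light intermediate chain that binds cargo adaptors, had 5.76, 5.60, 5.76 and 5.73 in siControl CB and 6.54, 6.58, 6.64 and 6.55 in siControl Ps. In siAPC it had 5.80, 5.68, 5.68 and 5.69 in CB and 6.36, 6.35, 6.37 and 6.38 in Ps. The CB groups overlapped, and the siAPC Ps libraries lay between them and the siControl Ps libraries. Ps/CB of Dync1li2 was 0.87 ± 0.05 (adjusted p = 2e-10) and 0.65 ± 0.05 (adjusted p = 8.61e-09). The second light intermediate chain, Dync1li1, had 0.00 ± 0.06 (adjusted p = 0.994) and -0.07 ± 0.06 (adjusted p = 0.341), but with total reads it was at -0.30 (adjusted p = 0.00193) and -0.23 (adjusted p = 0.0127) and passed as lower. The intermediate chain Dync1i2, which holds dynactin, rose by 0.61 ± 0.11 (adjusted p = 9.95e-05) and 0.68 ± 0.11, and by 0.34 and 0.26 after loess correction. Of the dynein 2 subunits, Dync2li1 rose by 0.53 ± 0.09 (adjusted p = 2.67e-05) and 0.45 ± 0.09 but was at 0.09 and 0.01 after loess correction, and Dync2h1, with 33 to 81 reads, had 0.17 ± 0.19 and 0.43 ± 0.19 and did not pass.

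At the deposited values 7 of the 8 dynein light chains rose in Ps under each siRNA, beside 29.1% and 29.8% of all genes. Dynlrb1 had log2 values of 7.35, 7.34, 7.16 and 7.33 in siControl CB and 8.38, 8.21, 8.16 and 8.14 in siControl Ps, with no overlap, and Ps/CB of 0.93 ± 0.06 (adjusted p = 3.43e-10) and 0.93 ± 0.06 in siAPC, which loess correction brought to 0.44 and 0.55. Dynlt3 had 3.53, 3.46, 4.42 and 3.64 in siControl CB and 4.96, 5.07, 4.79 and 4.87 in siControl Ps, again with no overlap, and Ps/CB of 1.16 ± 0.19 (2.24-fold, adjusted p = 2.5e-05) and 1.41 ± 0.19 (2.66-fold, adjusted p = 2.84e-06). After loess correction the Dynlt3 values were 0.54 and 0.68. The 4 copies of the Tctex chain had smaller ratios. Dynlt1a rose by 0.63 and 0.36, Dynlt1b by 0.59 and 0.44 and Dynlt1f by 0.43 and 0.44 (0.13 in siControl with total reads, adjusted p = 0.241, which ends that call), while Dynlt1c had 0.20 ± 0.19 and 0.00 ± 0.19 and did not pass. These 4 genes share 63.0% to 88.6% of their stretches of 50 bases with another gene, so the split of reads among them is uncertain, Dynlt1a shares 13.6% of its exonic bases with Tmem181a on the opposite strand, and Dynlt1b turned to -0.16 and -0.24 after loess correction.

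Of the 6 dynactin subunits Dctn2, Dctn3, Dctn5 and Dctn6 rose slightly in Ps under both siRNAs at the deposited values, and Dctn1 and Dctn4 did not. Dctn2 rose by 0.32 ± 0.06 in siControl (adjusted p = 0.000291) and 0.16 ± 0.06 in siAPC (adjusted p = 0.0425), a call lost without siControl CB 4, siAPC CB 2, 3 or 4, or siAPC Ps 1, 3 or 4, without a trend in the fit, after loess correction (adjusted p = 0.0601) and with total reads (0.00, adjusted p = 0.997). Dctn3, another shoulder subunit, rose by 0.41 ± 0.08 and 0.32 ± 0.08. Dctn5 and Dctn6, which cap the pointed end of the dynactin filament, rose by 0.37 and 0.46 and by 0.39 and 0.37. Dctn4, also at the pointed end, had -0.11 and -0.02 and did not pass. Dctn1, which binds microtubules and dynein, had -0.13 ± 0.11 (adjusted p = 0.298) in siControl and fell by 0.41 ± 0.11 in siAPC (adjusted p = 0.00352) at the deposited scale, with values of 7.90, 7.87, 7.94 and 7.84 in siAPC CB and 7.42, 7.18, 7.70 and 7.65 in siAPC Ps. The siAPC groups of Dctn1 did not overlap. In siAPC the fractions were apart for 11 members lower in Ps, beside 30.4% of all genes, and for 23 higher, beside 28.2%. After loess correction Dctn1 was 0.51 in siControl (adjusted p = 7.89e-08) and 0.30 in siAPC (adjusted p = 7.22e-05), and Dctn4 was -0.37 (adjusted p = 0.00339) and -0.43 (adjusted p = 0.00136), and all 4 values passed the test. With the same correction Dctn6 was -0.04 and Dctn3 0.01 under both siRNAs. With scaling by total reads Dctn2, Dctn3, Dctn5 and Dctn6 no longer passed in siControl, while Dctn1 at -0.43 and Dctn4 at -0.40 did.

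GC content and transcript length moved with these ratios. Across the 30 kinesins Spearman's rho between Ps/CB and the GC content of the longest transcript was -0.57 in siControl and -0.71 in siAPC, and across the 20 dynein and dynactin genes -0.11 and -0.28. With transcript length rho was 0.16 and 0.10 for kinesins and -0.45 and -0.37 for dynein and dynactin. Across 12872 annotated genes it was -0.34 and -0.44 with GC content and -0.32 and -0.28 with length. These are descriptions across genes of the same libraries, and genes are not independent replicates. The median transcript had 5143 bases for kinesins, 2579 for dynein and dynactin and 3158 for all genes. After loess correction for both properties the family medians were 0.23 and 0.28 in siControl and 0.23 and 0.26 in siAPC, with dynein and dynactin higher than kinesins in 2 of 4 ratios in siControl and in 3 of 4 in siAPC.

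**Figure D3:**
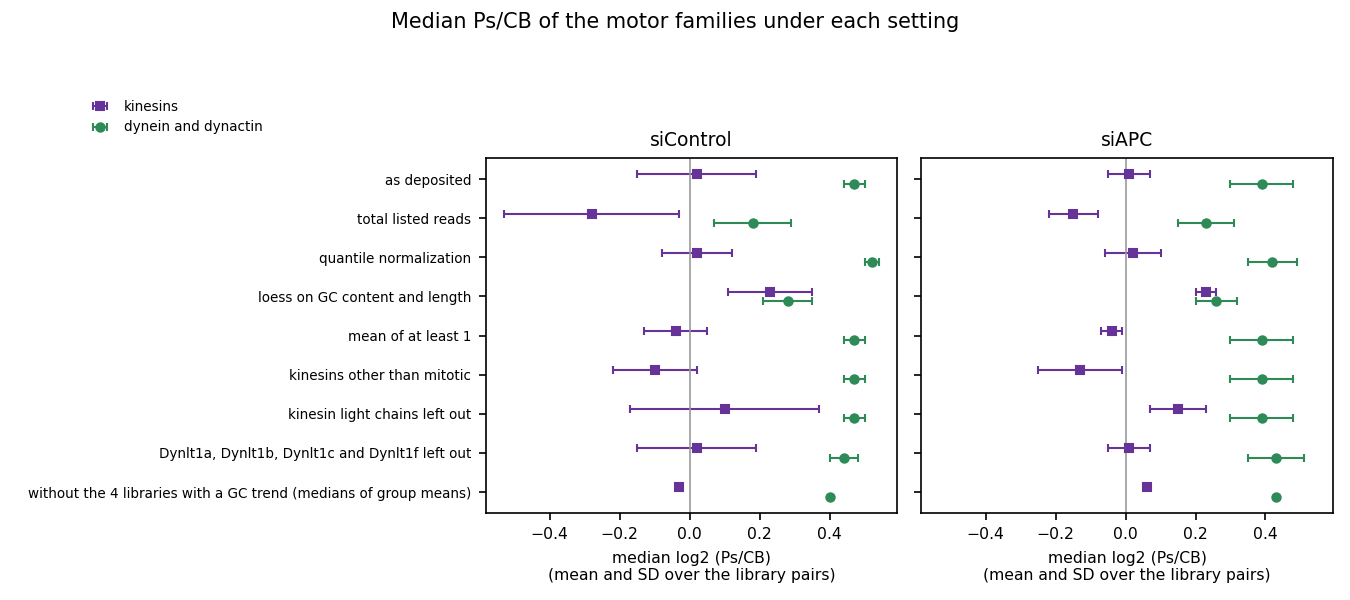
Median log2 Ps/CB of kinesins (squares) and of dynein and dynactin (circles) under each setting, as the mean and SD over 4 ratios of same-numbered libraries; the lowest line gives medians of group means with no error. The families stand 0.24 to 0.58 apart except with the loess correction on GC content and length, where they lie at 0.23 and 0.28 in siControl.

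Kif1c and Dynll2 did not follow the GC trend. Their transcripts have GC contents of 54.5% and 53.7%, above the median of 50.1% for all genes, and after loess correction Ps/CB was higher than at the deposited values, at 2.67 and 1.99 for Kif1c and 2.23 and 1.77 for Dynll2 in siControl and siAPC. Kif5b and Dynlt3, at 41.1% and 38.9%, lie at the low end. Kif5b kept 1.42 and 1.24 after correction.

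**Figure D4:**
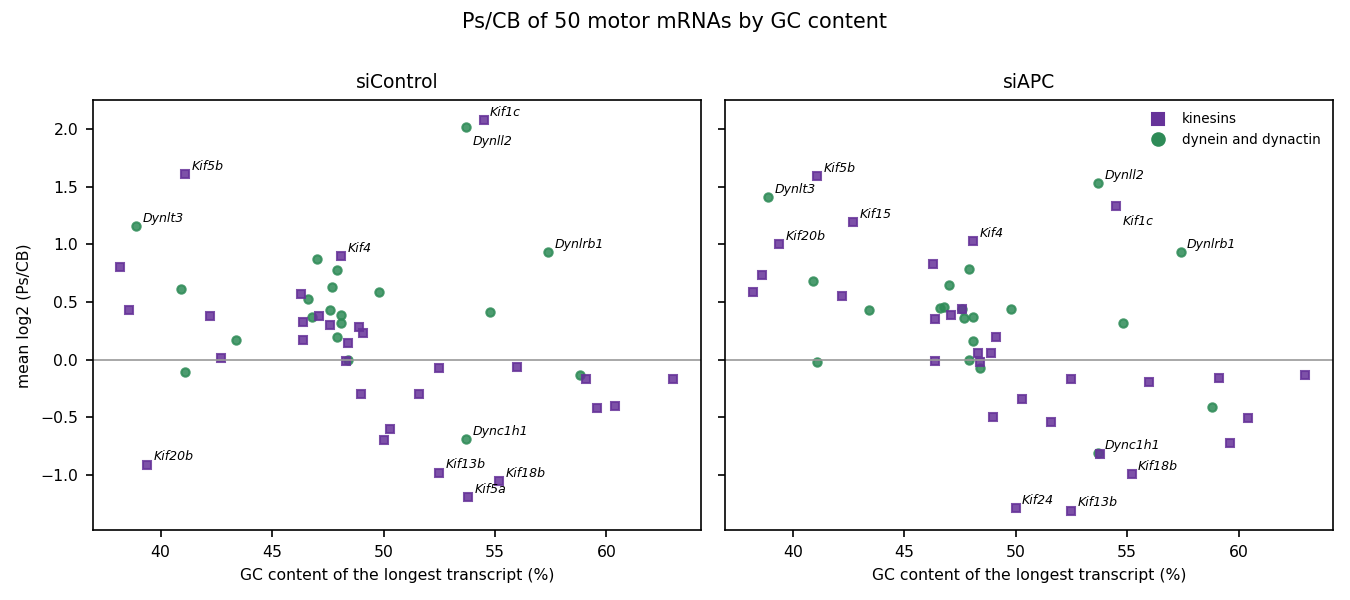
Mean log2 Ps/CB of the 50 motor mRNAs against the GC content of the longest annotated transcript in percent (squares kinesins, circles dynein and dynactin). Kinesins fall from left to right. In siControl Kif1c and Dynll2 lie at the top at GC contents of 54.5% and 53.7%. In siAPC Kif5b is highest, at 1.59 and a GC content of 41.1%, and Dynll2 is at 1.53 and Kif1c at 1.33.

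The change of Ps/CB with siAPC was small for the family as a whole and clearest for Kif1c and Dynll2. None of the 50 members passed an adjusted p of 0.05 for this change in limma or with limma-voom weights, and 3 of 13015 genes (0.0231%) did in limma, all with a lower ratio. Before adjustment 5 members had a ratio lowered with siAPC at p below 0.05 (1.71% of all genes) and 2 had a raised one (2.07% of all genes). The study's form of rule for APC dependence (Ps-enriched in siControl, ratio lower with siAPC, unadjusted p below 0.1) took Kif1c and Dynll2, 2 of 50 members (4.0%), beside 0.676% of all genes. The same 2 members were taken with scaling by total reads.

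For Kif1c the 4 ratios of same-numbered libraries were 2.06, 1.76, 2.41 and 2.09 in siControl and 1.21, 1.06, 1.53 and 1.5 in siAPC, with no overlap. The change was -0.75 ± 0.15 (limma, unadjusted p = 6.12e-05, adjusted p = 0.133). It was -0.61 with total reads and -0.69 after loess correction, where the adjusted p was 0.00287, and over all alternatives the adjusted p ran from 0.00287 to 0.411, below 0.05 also without siControl Ps 2 or siAPC Ps 3. For Dynll2 the ratios were 1.97, 1.87, 2.21 and 2.02 in siControl and 1.40, 1.38, 1.66 and 1.68 in siAPC, again apart, and the change was -0.49 ± 0.11 (limma, unadjusted p = 0.000225, adjusted p = 0.219). With loess correction it was -0.46 (adjusted p = 0.0348), and the adjusted p ran from 0.00803 to 0.625 over all alternatives. Dync1li2 ratios were also apart, at 0.78, 0.99, 0.88 and 0.82 against 0.56, 0.67, 0.70 and 0.69, with a change of -0.21 ± 0.08 (limma, unadjusted p = 0.012) that was -0.07 with total reads. In all, ratios did not overlap for 3 members in the lower direction (1.58% of all genes) and for 1, Kif15, in the higher (1.96%). The siControl ratios match CB and Ps by number, which does not pair all of those libraries. Other matchings were not tested. Dynlt1a at -0.27 ± 0.12 and Kif7 at -0.30 ± 0.13 passed an unadjusted 0.05 at 0.042 and 0.0318, and lost it with total reads, without the 4 libraries with the GC trend, and in 10 and 6 of the 16 fits that each leave out 1 library. Kif7 lost it in limma with loess correction too, at an unadjusted 0.0677, or 0.0531 with the replicate block, which also matches siControl CB and Ps by number. Kif15 and Kif20b, mitotic kinesins with 1 to 27 reads, had changes of 1.18 ± 0.51 and 1.91 ± 0.81 at unadjusted 0.0317 and 0.0304, lost without siControl CB 3, siControl Ps 3, siAPC CB 3 or siAPC Ps 2, for Kif15 also without siAPC CB 1 and for Kif20b without siControl Ps 1 or 4 or siAPC CB 4.

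For both genes the difference between siAPC and siControl had opposite signs in the fractions at the deposited scale. With siAPC Kif1c had 0.17 ± 0.10 in CB (adjusted p = 0.319) and fell by 0.58 ± 0.10 in Ps (0.668-fold, adjusted p = 0.000438), and its fall in Ps passed under every alternative run, between -0.66 and -0.34. Dynll2 rose by 0.34 ± 0.08 in CB (adjusted p = 0.00466) and had -0.15 ± 0.08 in Ps (adjusted p = 0.182), which became 0.02 with total reads.

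Most members whose level rose with siAPC were mitotic kinesins. With siAPC 8 of the 11 were higher in CB and 10 of 11 in Ps, typically about 2-fold, and none was lower. The 19 other kinesins gave 0 higher and 0 lower in CB in limma, and 0 higher and 2 lower (Kif1c and Kif3c) in Ps. With limma-voom weights these counts were the same, and before adjustment 2 of the 19 were lower in CB and 8 in Ps and none was higher. Over the 50 members 9 rose and 1 fell in CB, beside 7.52% and 5.87% of all genes. In Ps 11 rose and 8 fell, beside 10.7% and 11.2%. The replicate numbers pair the Ps libraries of both siRNAs, and with them as a block 13 members fell in Ps, beside 13.5% of all genes in that fit, or 17 with the loess correction as well, beside 18%, while 5 fell without siAPC Ps 1, beside 9.20%. The mitotic counts were the same with scaling by total reads and after loess correction, and for Kif2c, Kif4, Kif11, Kif15, Kif18b, Kif20a, Kif20b and Kif22 no call with siAPC in CB or Ps was lost in any alternative that tested the gene. The other Ps counts moved with scaling, to 16 higher and 2 lower with total reads, beside 22.6% and 4.23% of all genes under that scaling, which moved the median of all genes in this comparison from -0.02 to 0.14.

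Kif20a, which acts at the midzone in cytokinesis, had log2 values of 3.27, 3.41, 2.79 and 3.24 in siControl CB and 4.37, 4.27, 4.42 and 4.57 in siAPC CB. In Ps it had 3.54, 3.55, 2.94 and 3.24 in siControl and 4.33, 4.28, 4.41 and 4.51 in siAPC. All siAPC libraries lay above all siControl libraries. It rose by 1.23 ± 0.14 in CB (2.35-fold, adjusted p = 4.59e-06) and 1.06 ± 0.14 in Ps (2.09-fold, adjusted p = 1.58e-05). Kif20a shares 29.3% of its exonic bases with Cdc23 on the opposite strand, and the part of Cdc23 reads in its counts was not tested.

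Kif18b, which acts at the plus ends of spindle microtubules, had 3.54, 3.72, 2.92 and 2.91 in siControl CB and 4.23, 4.16, 4.44 and 4.45 in siAPC CB. In Ps it had 2.18, 2.65, 1.87 and 2.18 in siControl and 3.23, 3.08, 3.42 and 3.58 in siAPC. In each fraction siAPC lay above siControl, and within each siRNA CB lay above Ps. It rose with siAPC by 1.05 ± 0.18 in CB (adjusted p = 0.000569) and 1.11 ± 0.18 in Ps (adjusted p = 0.000214), and its Ps/CB was -1.05 ± 0.18 (0.483-fold, adjusted p = 6.26e-05) in siControl and -0.99 ± 0.18 in siAPC. Mitotic kinesins therefore did not share a place between the fractions, while 8 of the 11 rose with siAPC in CB and 10 in Ps. Kif4, a chromosome-bound kinesin, lay the other way, with Ps/CB of 0.90 ± 0.19 (adjusted p = 0.000483) and 1.03 ± 0.19, and it shares 15.1% of its exonic bases with Pdzd11 on the opposite strand. After loess correction Ps/CB of Kif18b was -0.64 and -0.54, and that of Kif4 was 1.10 and 1.21. Kif2c passed as lower in siControl Ps at -0.60 (adjusted p = 0.0119), a call lost without siControl CB 1. In siAPC Kif22 fell by 0.50 (adjusted p = 0.00335), Kif15 rose by 1.19 (adjusted p = 0.00781) and Kif23 by 0.83 (adjusted p = 0.0217, lost with total reads).

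Of the other 9 mitotic kinesins 6 rose in both fractions, 2 passed the test in Ps and not in CB, and 1 passed in neither. Kif2c, which takes kinetochore microtubules apart, rose by 1.06 ± 0.19 in CB and 1.33 ± 0.19 in Ps (adjusted p = 0.000898 and 6.04e-05), and Kif4 by 0.93 ± 0.19 and 1.05 ± 0.19. Kif11, which slides spindle poles apart, rose by 0.99 ± 0.24 and 1.16 ± 0.24 (adjusted p = 0.0082 and 0.0015). The cytokinesis kinesins Kif14 and Kif23 rose by 1.25 and 1.07 and by 1.04 and 1.31, and Kif22, which pushes chromosome arms, by 0.93 ± 0.13 and 0.73 ± 0.13. Kif15, a spindle kinesin, and Kif20b, of cytokinesis, had 0.19 and 0.16 in CB and rose in Ps by 1.37 ± 0.36 and 2.07 ± 0.58 (adjusted p = 0.00983 and 0.014). These rises rest on few reads. Kif15 had 3 to 10 in siControl Ps and 18 to 27 in siAPC Ps. Kif20b had 1 to 6 and 7 to 15, and its Ps groups overlapped. Kif18a, which aligns chromosomes, had 0.37 and 0.16 and did not pass with 3 to 26 reads. Groups did not overlap for 8 of the 11 in CB and 9 in Ps, where 11.1% and 10.9% of all genes did not overlap in that direction. The median change was 0.99 in CB and 1.11 in Ps, beside -0.04 and -0.02 for all genes.

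**Figure D5:**
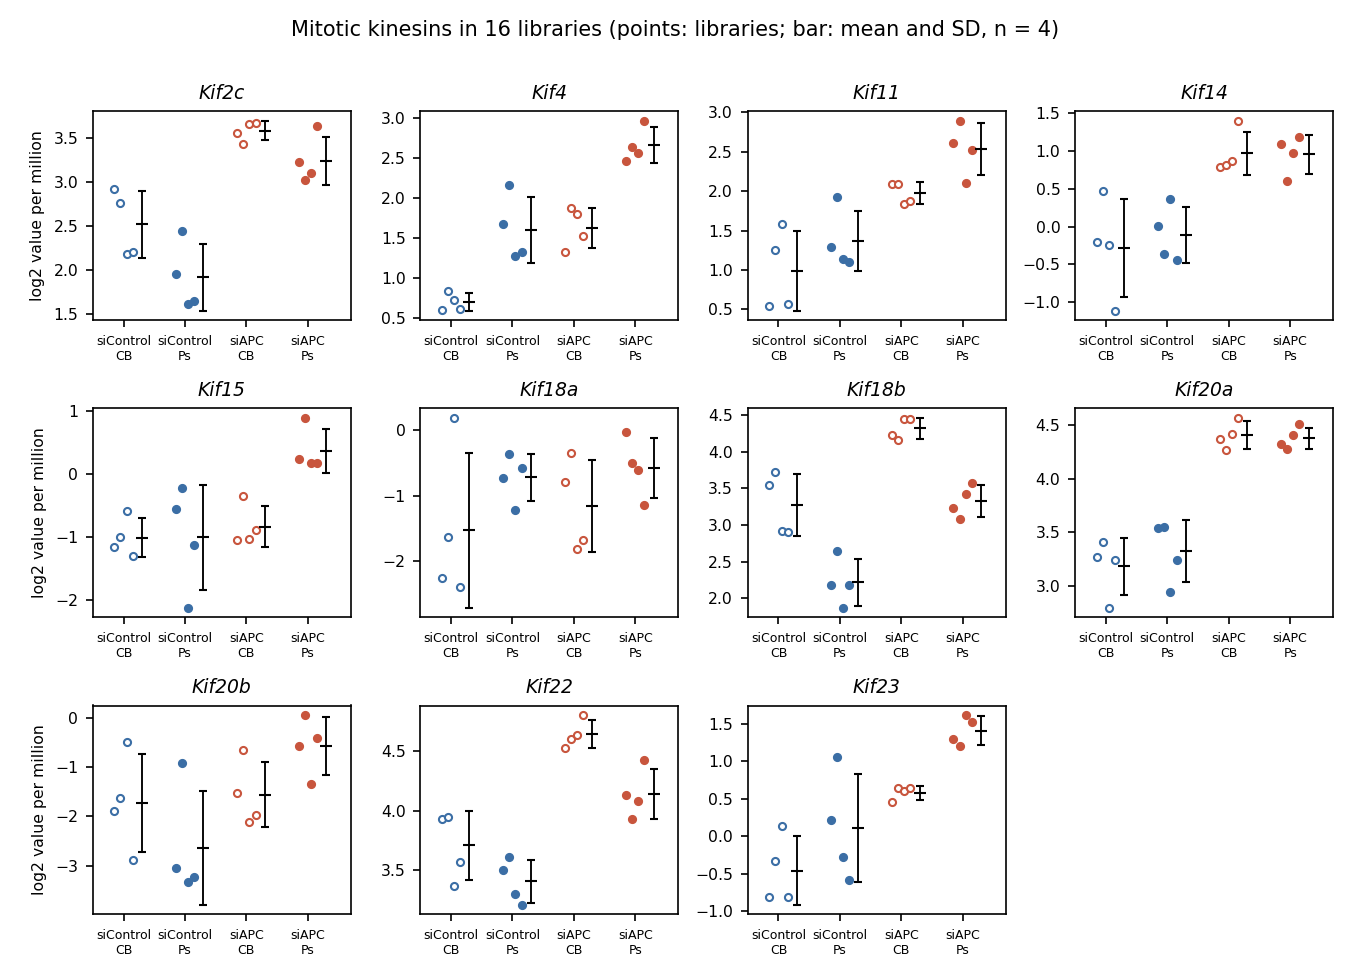
Log2 values of the 11 mitotic kinesin mRNAs in the 16 libraries, by group (points are libraries, the bar is the mean and SD of 4). The siAPC libraries lie above the siControl libraries of the same fraction in 8 panels for CB and 9 for Ps, while Kif18b is lower and Kif4 higher in Ps than in CB.

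Mitosis genes outside the motors moved in the same direction. Of 20 such genes 15 were higher and 0 lower in CB in limma, and 17 were higher and 0 lower in Ps, beside 7.52% of all genes higher in CB and 10.7% in Ps, and none was lower at an unadjusted p or with limma-voom weights. Medians were 0.97 and 1.06, from Ccnb2, a cyclin, at 0.27 and 0.22 to Plk1, a mitotic kinase, at 1.33 in CB and Bub1, a checkpoint kinase, at 1.59 in Ps. Their summed level was 7.49 to 7.94 in siControl CB and 8.53 to 8.85 in siAPC CB, and 7.44 to 8.00 and 8.53 to 8.78 in Ps. In these bulk libraries more cells in division and more of each mRNA per dividing cell cannot be told apart.

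The mitotic kinesins shared a promoter element that the name rule did not use. Genes transcribed in late cell cycle often carry the cell cycle genes homology region, whose core is TTTGAA, near the start site. It was searched on both strands in RefSeq promoters of GRCm38.p6, 250 bases before to 50 after the start, which were at hand for 38 of the 50 members and 10 of the 11 mitotic kinesins. The motif stood in 9 of these 10 (90.0%; all but Kif18a), in 1 of the 28 other members (3.57%; Dctn1), in 12 of 16 genes of the mitosis list (75.0%), in 14.0% of 9170 listed genes and in 17.9% of 32851 promoters of that length. A match describes the letters of the window and is not a shown binding site. The 7 mitotic kinesins with a match nearest to the start, with its first base between -19 and 20 counted from the start, are shown as windows of 24 bases on the gene's strand, with the match in capitals (TTCAAA where it lies on the other strand). They were picked for lying nearest to the start, and are given to show the letters around the match in mitotic kinesins that rose with siAPC in Ps. Kif20b holds 2 matches in a row.
Kif11, chr19:37376354-37376377: tctccatttTTCAAAattgaggcg
Kif15, chr9:122951053-122951076: ggcgccaaaTTCAAAtctgcggcc
Kif22, chr7:127042423-127042446: ccccggtaaTTCAAAagagagaag
Kif23, chr9:61946783-61946806: attggcctgTTTGAAatgcgccgg
Kif18b, chr11:102925107-102925130: accggctagTTTGAAcgcgccgcg
Kif20b, chr19:34922356-34922379: ccgccattgTTTGAATTTGAAaac
Kif4, chrX:100626075-100626098: tgggatcaaTTTGAAacttggcgg
In Kif2c and Kif14 the match lay farther upstream, at -103 and -228. The related letters TTCGAA, which do not overlap TTTGAA in these windows, stood in 0 of the 10 mitotic kinesins, in Kif24 and Dctn3 among the other members, in 3 of 16 genes of the mitosis list (18.8%) and in 1.56% of promoters.

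Outside the mitotic kinesins, members that passed the test with siAPC changed by at most the 0.58 of Kif1c on the log2 scale. Dynll1 fell by 0.21 ± 0.06 in CB (adjusted p = 0.0199) and 0.20 ± 0.06 in Ps (adjusted p = 0.0224), with 7.20, 7.28, 7.03 and 7.27 in siControl CB against 7.03, 6.92, 7.00 and 6.98 in siAPC CB. The CB groups met at 7.03 to the printed digits, and Dynll1 was the only member whose siAPC CB libraries all lay lower, beside 9.73% of all genes. In Ps 8 members lay lower in this way, beside 11.6%. The CB call was lost without siControl CB 2 or 4 or siAPC CB 2 or 4. The Ps call was lost without siControl Ps 1 or siAPC Ps 3, with quantile normalization, and with total reads, where it was -0.03. Dynlrb1 rose by 0.18 ± 0.06 in Ps (adjusted p = 0.0356), a call lost without any single Ps library other than number 1. Lower in Ps with siAPC were also Dctn2 by 0.27 (adjusted p = 0.00448), Dync1li2 by 0.21 (adjusted p = 0.00769), Dynlt1a by 0.33 (adjusted p = 0.01), Dync2li1 by 0.26 (adjusted p = 0.0342), Dynlt1b by 0.35 (adjusted p = 0.0456) and Kif3c by 0.40 (adjusted p = 0.0249). Of these 6 only Dctn2 passed with scaling by total reads. The Dynlt1b call was lost in 17 of 25 alternatives, and that of Kif3c without siControl Ps 3 or 4 or siAPC Ps 1 or 2.

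Other genes of the motor pathway, taken from a list of 35 adaptors, regulators, dynactin filament subunits and minus-end kinesins of which 31 were listed, lay on both sides. In siControl 12 (38.7%) were higher and 11 (35.5%) lower in Ps, beside 29.1% and 31.2% of all genes, and in siAPC 11 and 11, beside 29.8% and 30.9%. Trak2, an adaptor that ties kinesin-1 and dynein to mitochondria, rose most in Ps, by 1.64 ± 0.10 in siControl (adjusted p = 1.45e-10) and 1.37 ± 0.10 in siAPC. It was the gene of this list that met the rule for APC dependence, with a change of -0.27 ± 0.14. That rule takes an unadjusted p below 0.1. With total reads the median change of Ps/CB over all genes moved from 0.0 to 0.15. Kifc5b, a minus-end kinesin near-identical to Kifc1, fell by 1.53 ± 0.14 in siControl. The split of reads between Kifc5b and Kifc1 was not tested, so their values here and below may not be separate measurements. Ninl, a centrosomal dynein adaptor, fell by 1.5 ± 0.19. With siAPC 4 of the 31 rose and 1 fell in CB, beside 7.52% and 5.87% of all genes, and 5 rose and 2 fell in Ps, beside 10.7% and 11.2%. Kifc1, a spindle kinesin, rose by 0.90 in CB (adjusted p = 0.000419) and 1.06 in Ps (adjusted p = 4.62e-05), Kifc5b by 0.61 and 1.05, and Bicd2, a dynein adaptor, by 0.55 in Ps.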

How the data were processed

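RNA-Seq was measured in 16 stranded mRNA libraries of NIH/3T3 fractions, 4 groups of 4 taken from the sample labels. The authors aligned reads to mm10 with STAR, counted genes with Rsubread and deposited log2 CPM normalized with limma-voom. Their stated cutoff is a log value of 0.5 in at least 1 sample, which some listed genes do not reach. The submitters' notes name STAR 2.4.2a, bcl2fastq 1.8.4 and limma 3.26.1. From the deposited log2 values whole reads were recovered (100.0% of 208240 values within 0.01 of a whole read), so depth is known; reads are not molecules and these depths cover counting error only. Symbols were matched to the GENCODE annotation of GRCm38, the build of the files, for 12872 genes (98.9%), which gave positions, lengths and GC content, and promoters came from RefSeq.

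Each comparison was fitted over all 13015 genes and 16 libraries with limma 3.58.1 (R 4.3.3; group means, eBayes with trend, Benjamini-Hochberg adjustment), first tested on simulated data. Values are log2 with their SE; n is 4 libraries per group. Tables and figures used Python 3.11.15, pandas 2.3.3, numpy 2.4.6, scipy 1.17.1 and matplotlib 3.10.9. Alternatives were a replicate block, no trend, voom weights, scaling to total listed reads, quantile normalization, a mean of at least 1, loess on GC content and length (span 0.3), each library left out, the 4 libraries with the GC trend left out, and a fold of 1.5.

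The members and lists were chosen with earlier results of these data known. Named were Kif1c, members past 2-fold, the 5 highest and 5 lowest members per comparison with adjusted p below 0.05 and a mean of at least 1, members past an unadjusted 0.05 for the change of Ps/CB, and the dynein 1 and dynactin subunits, with the 3 most changed genes of the other lists. Members outside this rule were described after their values were seen, to complete the families. Same-numbered libraries deviated together (r over 10292 genes) in siAPC CB and Ps (0.416 to 0.617) and in siControl and siAPC Ps (0.162 to 0.551). The numbers were taken to pair those samples. In siControl CB and Ps r was 0.337 and 0.432 for numbers 1 and 4, and -0.121 for numbers 2 and 3. In CB of both siRNAs r was 0.269 and 0.256 for numbers 1 and 4, and -0.336 and -0.324 for numbers 2 and 3. In these 2 comparisons the numbers therefore do not pair all libraries, for a reason that was not tested.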

Additional observations from a re-analysis of the deposited data

Results flagged for a closer look

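With siAPC Kif1c fell by 0.58 log2 in Ps and had a value of 0.17 in CB that did not pass (limma, adjusted p = 0.000438 and 0.319), and the Ps change less the CB change was -0.75 log2 (limma interaction, unadjusted p = 6.12e-05, adjusted p = 0.133).

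In 6 of 124 groups of 4 libraries, over the named members, 1 library stood apart from the other 3, where chance sets about 1 in 20 groups apart. Dync1i2 was highest in siControl CB 3 at 5.88, with the nearest library at 5.51. Dynlrb1 was lowest in the same library at 7.16, with the nearest at 7.33; this library has the GC trend. Dync1li2 was highest in siAPC CB 1 at 5.80, with the nearest at 5.69. Kif13b was lowest in siAPC Ps 2 at 2.56 against 3.01, and Kif15 was highest there at 0.89 against 0.24. Kif20b was highest in siControl Ps 2 at -0.91 against -3.05, where the group holds 1 to 6 reads. Both of these Ps libraries have the GC trend too, and its part in these values was not tested.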

How the results depend on the processing

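Of 79 named results with a call, 48 had the same call in all alternatives, 25 lost the threshold in at least 1 and 8 reversed. Ps/CB of Dctn6 and of Kif3c in siControl are counted among the lost and the reversed alike. The 8 reversed with loess on GC content and length, with or without the replicate block: Dctn1 in siAPC 0.30, Dctn6 -0.04 under both siRNAs, Dynlt1b -0.16 and -0.24, Kif3c in siControl 0.15 and Kif7 0.28 and 0.04; the cause was not tested. The replicate block ended no named call. It moved members lower in Ps with siAPC from 8 to 13, and together with loess these were 17, with 4 lower in CB. The block matches libraries by number in every comparison. In siControl CB and Ps and in CB of both siRNAs numbers 2 and 3 did not deviate together, so there the block cannot serve as a check by pairs. Total listed reads gave 12 higher and 17 lower in siControl Ps, 2 lower and 6 higher at an unadjusted p for the change of Ps/CB, and 2 lower in Ps with siAPC. Quantile normalization gave 4 CB-enriched in siAPC and 2 lower in CB with siAPC. A mean of at least 1, which tests fewer genes, left 1 CB-enriched in each siRNA and 0 higher for the change of Ps/CB. It left 7 higher in Ps with siAPC, beside 10.9% of the genes tested. Loess gave 1 CB-enriched in siControl, 5 lower and 0 CB-enriched in siAPC, and 2 with a lower Ps/CB change at an adjusted p (Kif1c and Dynll2). The replicate block did not move these 4 counts. Loess also gave 2 lower in CB and 15 lower in Ps with siAPC, the latter beside 16.5% of all genes in that fit. Without the 4 libraries with the GC trend 3 had a lower change of Ps/CB and 2 were lower in CB. A fold of 1.5 gave 11 Ps-enriched and 6 CB-enriched in siControl, 12 and 6 in siAPC, and 4 by the rule for APC dependence. Counts in this paragraph without a share beside them cannot be set beside the shares of all genes at the deposited values and 2-fold.

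The difference of family medians was 0.05 in siControl and 0.03 in siAPC with loess; among alternatives chosen after seeing the data, it was 0.51 in siAPC for kinesins other than mitotic and 0.24 without kinesin light chains.

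With single libraries left out, counts ran from 18 to 25 higher and 7 to 10 lower in siControl Ps (4 to 5 Ps-enriched, 2 to 3 CB-enriched) and from 19 to 26 and 10 to 12 in siAPC Ps (5 to 7, 2 to 3). The change of Ps/CB had 0 to 1 lower and 0 to 0 higher at an adjusted p, and 3 to 6 and 0 to 2 unadjusted, with 2 to 2 by the rule for APC dependence. With siAPC 8 to 10 were higher and 0 to 1 lower in CB (0 without siControl CB 2 or 4 or siAPC CB 2 or 4), and 10 to 11 higher and 5 to 11 lower in Ps (5 without siAPC Ps 1). Family differences ran from 0.39 to 0.49 and from 0.34 to 0.42. Depth limits Kif15, Kif18a and Kif20b, with 1 to 27 reads.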
